A study of Rattus norvegicus with 10 samples.

Results

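A group of 10 genes linked to the NRF2 antioxidant response was followed in the distal colon epithelium of cholate-fed rats: Hmox1, Nqo1, Gclc, Gclm, Txnrd1, Srxn1, Slc7a11, Gpx2 and Osgin1, together with the aldo-keto reductase Akr1b8. They were taken by gene symbol from the deposited profiling table, in which these 10 are among 23422 genes. The animals were male Wistar Munich rats, a laboratory strain, of which 12 were kept in metabolic cages and acclimatized for 3 days. Of these, 6 were moved to chow with 1% (w/w) sodium cholate, a primary bile acid salt, and the others stayed on chow without it, for 10 days. Epithelial cells were freed with EDTA from the distal part of the colon, and 5 rats per diet were sequenced as stranded poly(A) libraries on a HiSeq 2500. Those 5 were the ones with the highest RNA concentration, so the choice was not random. The libraries are named here by diet and rat number, cholate rats 3, 4, 7, 8 and 11 and control rats 1, 2, 5, 6 and 9. Each library is a separate rat.

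NRF2 is a transcription factor that the adaptor protein KEAP1 normally hands over for degradation. Oxidants and electrophiles modify KEAP1, NRF2 builds up, pairs with small MAF proteins and binds antioxidant response elements near its target genes, while BACH1 competes for some of those elements, those of Hmox1 in particular. The targets make and use glutathione and thioredoxin, reduce quinones and aldehydes, and break down heme, and the gut epithelium, which faces dietary and bacterial chemicals, expresses many of them at high levels.

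The stretches before the gene starts are shown because the antioxidant response element is the DNA site that NRF2 binds. The genes were taken by symbol and not by this site. RefSeq promoter windows of build GRCr8, 250 bases before to 50 bases after the annotated start, were read for 9 of the 10 genes, all but Hmox1. The core TGACNNNGC was searched on both strands, as TGACNNNGC or GCNNNGTCA, and lies in 4038 of 33469 rat windows of the same length (12.1%). It lies in windows of 3 members, at position -172 in Gclm, -78 in the second of the Txnrd1 windows and -13 in Gpx2, counted from the start to the first base of the match, each time on the strand opposite to the gene. The narrower TGACTCAGC lies in 139 windows (0.415%) and in none of the members' windows. A match is a run of letters and not a measured binding site. Bases outside these windows were not searched, so a window without a match does not show that the gene lacks an element. Capitals mark the core. The windows with a match are shown with that of Akr1b8, in which the diet difference kept its call in every setting tried and neither pattern was found.
Gclm (chr2:213031885-213032184, + strand): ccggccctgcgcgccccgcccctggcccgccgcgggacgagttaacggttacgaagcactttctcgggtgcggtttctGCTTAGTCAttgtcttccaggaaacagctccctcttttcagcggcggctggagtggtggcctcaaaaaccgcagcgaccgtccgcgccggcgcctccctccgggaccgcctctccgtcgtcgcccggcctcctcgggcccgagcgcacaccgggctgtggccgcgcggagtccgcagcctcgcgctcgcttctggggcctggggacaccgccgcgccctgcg
Txnrd1, second window (chr7:22755855-22756154, - strand): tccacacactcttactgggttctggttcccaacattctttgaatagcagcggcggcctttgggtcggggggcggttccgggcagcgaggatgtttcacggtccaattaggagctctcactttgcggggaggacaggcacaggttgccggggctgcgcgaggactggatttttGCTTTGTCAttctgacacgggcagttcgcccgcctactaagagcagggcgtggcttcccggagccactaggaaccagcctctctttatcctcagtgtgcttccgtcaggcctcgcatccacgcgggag
Gpx2 (chr6:101229984-101230283, - strand): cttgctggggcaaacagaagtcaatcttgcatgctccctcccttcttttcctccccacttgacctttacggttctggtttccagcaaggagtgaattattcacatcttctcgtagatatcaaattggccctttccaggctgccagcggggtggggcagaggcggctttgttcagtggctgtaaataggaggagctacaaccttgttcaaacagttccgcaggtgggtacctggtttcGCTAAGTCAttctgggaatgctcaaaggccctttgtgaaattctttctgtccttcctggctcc
Akr1b8 (chr4:63964171-63964470, + strand): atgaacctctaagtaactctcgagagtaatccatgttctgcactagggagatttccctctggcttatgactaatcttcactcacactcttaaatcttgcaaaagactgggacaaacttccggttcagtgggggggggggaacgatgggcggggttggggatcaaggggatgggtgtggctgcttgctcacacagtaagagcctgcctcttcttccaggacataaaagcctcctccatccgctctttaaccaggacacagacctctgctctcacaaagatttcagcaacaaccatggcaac

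Total counts per library were between 14337356 and 45285762, and levels are given as CPM, counts scaled to the size of the library, after TMM scaling. The libraries stood apart within each diet along 1 axis, the first principal component of the deviations from the diet mean, which held 71.5% of the within-diet variance. On it cholate rats 8 and 11 and control rats 5 and 9 had scores of 64.2, 48.1, 17.9 and 63.6, and the other 6 libraries had scores between -39.5 and -22.6. The deviations of genes also followed coding length, with r between 0.21 and 0.30 in those 6 libraries and between -0.34 and -0.08 in cholate rats 8 and 11 and control rats 5 and 9. Results are therefore given also for the 6 libraries alone (cholate rats 3, 4 and 7, control rats 1, 2 and 6) and with 1 surrogate variable in the model, both chosen after the data were seen. What the axis reflects was not tested.

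Of the 10 genes, 2 rose in cholate rats, Akr1b8 and Hmox1, and 0 fell. Calls rest on the edgeR quasi-likelihood F test with Benjamini-Hochberg adjustment over 12385 tested genes, with limits of 0.01 for the adjusted p and 2 for the fold change, and by that rule 1.1% of all tested genes were called higher and 2.12% lower. All 10 members passed the filter on low counts. Their median log2 fold change was 0.55, against -0.01 for all tested genes. It was positive in 7 of 10 members and in 6061 of all 12385 tested genes. At an unadjusted p under 0.05, 3 members were higher (14.5% of all genes) and 0 were lower (14.4%), and limma-voom and DESeq2 also called 0 lower (2.72% and 4.21% of all genes). Limma-voom called 1 member higher, Akr1b8 (1.15% of all genes), and DESeq2 called Akr1b8 and Hmox1 (2.15%). In 2 members, again Akr1b8 and Hmox1, every cholate rat was above every control rat, as in 6.3% of all genes, and 0 members were below in every cholate rat (6.8%). The tissue is a mixture of cells, and a change in the share of a cell type cannot be told apart from a change in RNA per cell.

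**Figure D1:**
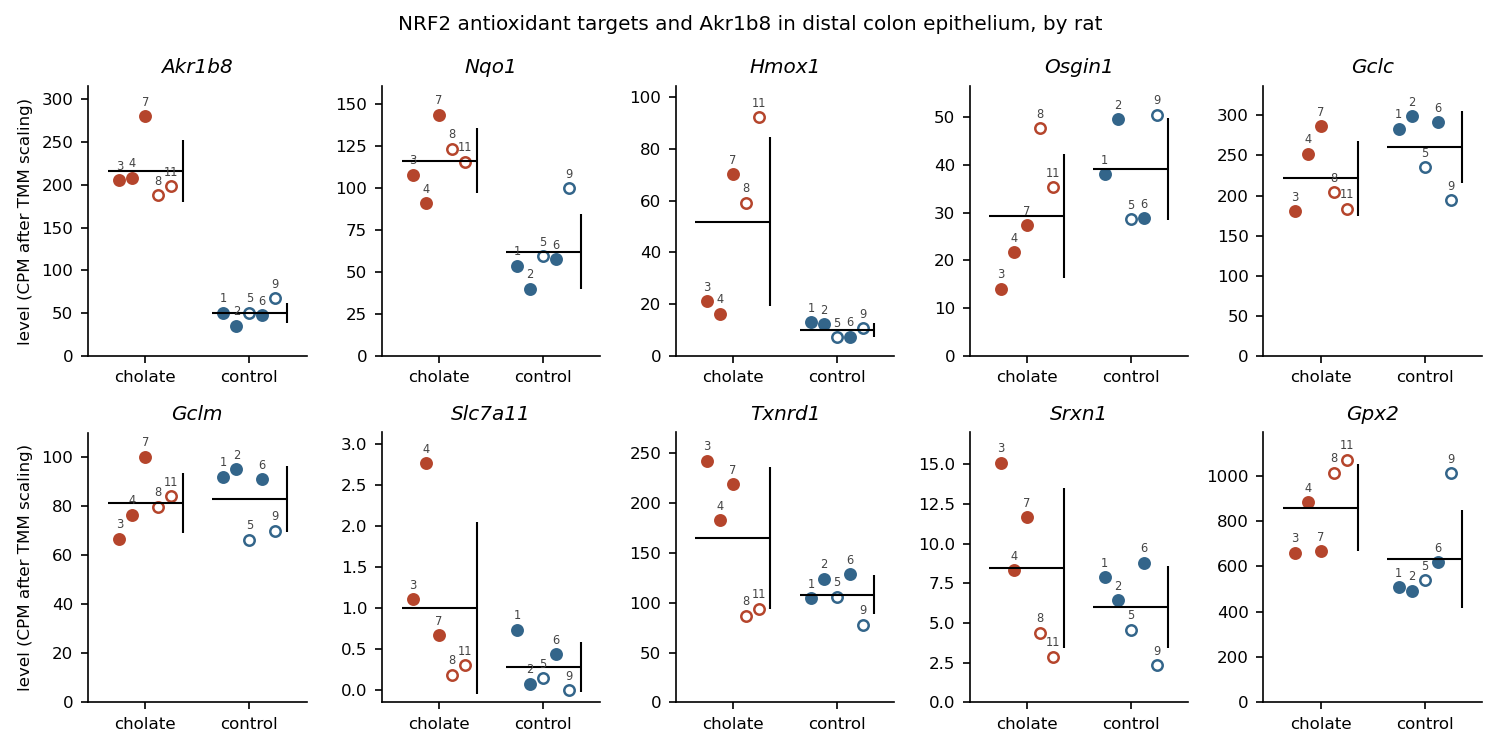
Level of each gene in each library, in CPM after TMM scaling, with cholate rats (red) left of control rats (blue). Numbers beside points are rat numbers, horizontal lines are diet means and vertical bars are ± 1 SD (n = 5 per diet); open points are cholate rats 8 and 11 and control rats 5 and 9, which stand apart along the library axis. Akr1b8 and Hmox1 have no overlap between diets, while Nqo1 overlaps through control rat 9 alone.

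Akr1b8 reduces aldehydes and ketones with NADPH and belongs to the aldose reductase branch of the aldo-keto reductases. It lies on chromosome 4, 61772064 to 61784637 on the + strand of rn6, with a coding length of 951 bases. Its level was 205, 208, 279.9, 188 and 198 CPM in cholate rats 3, 4, 7, 8 and 11, against 50.7, 35.5, 50.7, 47.5 and 67.4 CPM in control rats 1, 2, 5, 6 and 9. The lowest cholate rat was far above the highest control rat, and cholate rat 7 was above its group. The mean was 216.0 ± 36.6 CPM in cholate rats and 50.4 ± 11.4 CPM in control rats (SD, n = 5 each), a 4.29-fold difference (log2 fold change 2.10, approximate SE 0.18, adjusted p 0.000321). The gene stayed called in all 22 alternative settings, with log2 fold changes between 1.99 and 2.40, the higher value in the 6 libraries alone. Per kilobase of coding sequence Akr1b8 was the 2nd highest of the 10 genes in cholate rats, with a mean of 227, and the 6th highest in control rats, with a mean of 53.0.

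Hmox1 encodes heme oxygenase 1, which opens the heme ring to release iron, carbon monoxide and biliverdin. It lies on chromosome 19, 14508634 to 14515455 on the + strand of rn6, with a coding length of 870 bases. Its level was 21.1, 16.3, 70.2, 59.2 and 92.2 CPM in cholate rats 3, 4, 7, 8 and 11, against 13.1, 12.3, 7.24, 7.36 and 10.7 CPM in control rats 1, 2, 5, 6 and 9. Cholate rats 3 and 4 lay close above the controls and cholate rats 7, 8 and 11 far above them. The mean was 51.8 ± 32.5 CPM in cholate rats and 10.1 ± 2.73 CPM in control rats (SD, n = 5 each), a 5.11-fold difference (log2 fold change 2.35, approximate SE 0.46, adjusted p 0.00852). The call was lost in 13 of 22 alternative settings, among them 8 of the 10 that left out 1 rat, with adjusted p up to 0.0258 there, and held without cholate rat 3 or 4. In the 6 libraries alone the log2 fold change was 1.75 (adjusted p 0.0810) and with the surrogate variable 2.23 (adjusted p 0.00593).

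Macrophages also express Hmox1, and the ranges of their markers overlapped between diets. All 12 macrophage markers had reads, and their summed level was 231 to 296 CPM in cholate rats and 221 to 293 CPM in control rats. Most of that sum was Cd14, at 226 CPM in cholate rats and 227 CPM in control rats, while the complement genes C1qa, C1qb and C1qc had means of 5.44 to 6.58 CPM in cholate rats and 5.48 to 6.67 CPM in control rats. Mrc1, the mannose receptor, was at 5.89 ± 2.51 CPM in cholate rats and 3.10 ± 0.957 CPM in control rats (log2 fold change 0.93, adjusted p 0.102), and in the 6 libraries alone it was called higher. It was the only one of the 9 tested macrophage markers with an unadjusted p under 0.05. At that limit 14.5% of all genes were higher and 14.4% lower. The part of macrophages in the Hmox1 result was not tested.

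Nqo1 encodes a quinone reductase that takes up both electrons in one step and so avoids semiquinone radicals. It lies on chromosome 19, 38422210 to 38437103 on the + strand of rn6. Its level was 108, 91.1, 144, 123 and 116 CPM in cholate rats 3, 4, 7, 8 and 11, against 53.8, 40.1, 59.5, 57.5 and 99.9 CPM in control rats 1, 2, 5, 6 and 9. Control rat 9 alone reached into the range of the cholate rats, where it was above cholate rat 4, and cholate was the higher in 24 of 25 pairs of rats. The mean was 116.4 ± 19.4 CPM in cholate rats and 62.1 ± 22.4 CPM in control rats (SD, n = 5 each). The log2 fold change of 0.91 (approximate SE 0.23, adjusted p 0.0241) met neither limit of the call. Without control rat 9 it was 1.13 (adjusted p 0.00338) and in the 6 libraries alone 1.21 (adjusted p 0.00271), and both were called. By limma-voom with quality weights on all 10 libraries it was 1.11 (adjusted p 0.000715), which was called too. With the surrogate variable it was 0.94 (adjusted p 0.00201), under the fold limit.

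**Figure D2:**
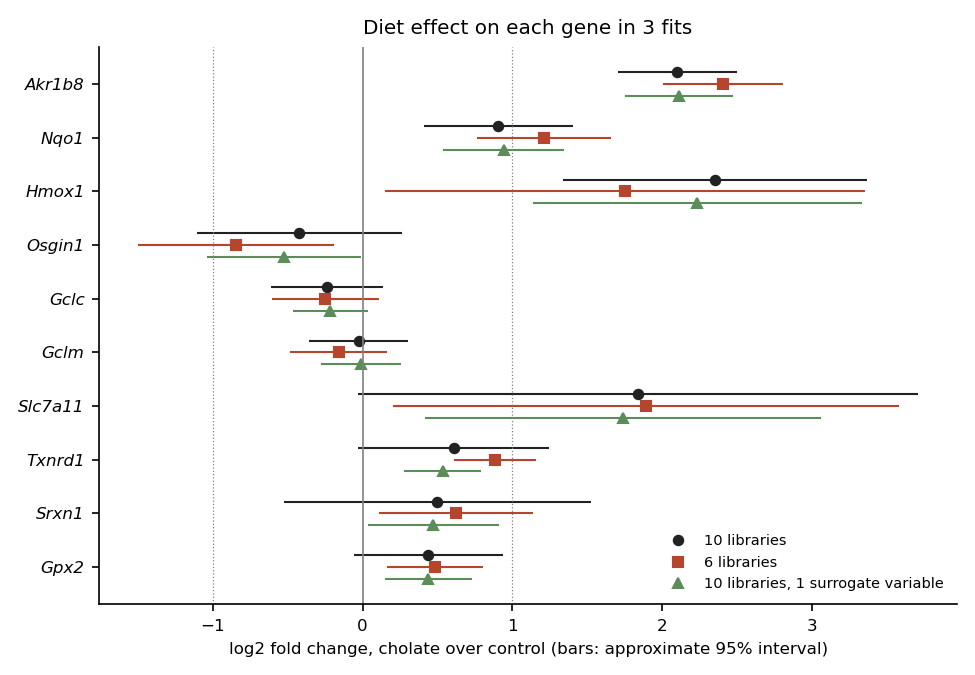
Log2 fold change of each gene, cholate over control, in the fit to all 10 libraries (black circles), to the 6 libraries alone (red squares) and to 10 libraries with 1 surrogate variable (green triangles). Bars are 95% intervals from the approximate SE, the solid line is no difference and the dotted lines are the fold limit of the call. Akr1b8 lies beyond the limit in each fit, at 2.10, 2.40 and 2.11, and the intervals of Gclc and Gclm include 0 in each fit.

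Neither subunit of the first enzyme of glutathione synthesis passed the test. Gclc and Gclm are the catalytic and modifier subunits of glutamate-cysteine ligase, the rate-limiting enzyme of glutathione synthesis. Gclc, on chromosome 8, 85059051 to 85097471 on the + strand of rn6, was at 180.1, 252, 286, 204 and 183 CPM in cholate rats 3, 4, 7, 8 and 11, against 283, 299, 235, 291 and 194 CPM in control rats 1, 2, 5, 6 and 9. The diets overlapped, and the log2 fold change was -0.24 (95% interval -0.61 to 0.14, adjusted p 0.404). Gclm, on chromosome 2, 225827504 to 225847876 on the + strand, was at 66.9 to 100.3 CPM in cholate rats and 66.4 to 95.1 CPM in control rats. Its log2 fold change was -0.02 (95% interval -0.36 to 0.31, adjusted p 0.937), and its sign changed in 4 of the 22 alternative settings. For both subunits these intervals leave out a doubling.

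Slc7a11 is the light chain of the cystine importer that feeds glutathione synthesis, and its gene lies on chromosome 2, 139453774 to 139528479 on the - strand of rn6. It was the lowest of the 10 genes, with 30, 135, 25, 3 and 4 counts in cholate rats 3, 4, 7, 8 and 11, against 21, 2, 4, 16 and 0 counts in control rats 1, 2, 5, 6 and 9. Cholate rat 4 held most of the cholate counts, and the diets overlapped. The 0 counts in control rat 9 allow up to 3 counts, or 0.163 CPM. The log2 fold change of 1.84 had an approximate SE of 0.85 (adjusted p 0.180) and was not called. It was 1.01 without cholate rat 4 and 2.50 without control rat 1, and with the surrogate variable it was 1.74 (adjusted p 0.0354). Slc3a2, the heavy chain of the same importer, had a log2 fold change of -0.22 (adjusted p 0.299).

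Thioredoxin reductase and sulfiredoxin, which keep the thioredoxin system and the peroxiredoxins reduced, overlapped between diets. Txnrd1, a selenoprotein, lies on chromosome 7, 26946124 to 26984400 on the - strand of rn6, and shares part of this span with Eid3 on the same strand, so how reads were split there is uncertain. Its level was 243, 183, 219, 87.2 and 93.9 CPM in cholate rats 3, 4, 7, 8 and 11, against 104, 124, 106, 129 and 78.1 CPM in control rats 1, 2, 5, 6 and 9. Cholate rats 3, 4 and 7 were above every control rat, and cholate rats 8 and 11 were below all but control rat 9. Over all 10 libraries the log2 fold change was 0.61 (approximate SE 0.29, adjusted p 0.190). In the 6 libraries alone it was 0.88 (approximate SE 0.12, adjusted p 0.00118), and with the surrogate variable 0.54 (adjusted p 0.00340), both under the fold limit. With the same limit on p and none on fold, 9.72% of all genes were higher and 10.3% lower in the 6 libraries, and 13.5% were higher and 14.5% lower with the surrogate variable.

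Srxn1, on chromosome 3, 147608850 to 147614410 on the + strand of rn6, was at 15.1, 8.32, 11.7, 4.38 and 2.88 CPM in cholate rats 3, 4, 7, 8 and 11, against 7.89, 6.44, 4.59, 8.81 and 2.34 CPM in control rats 1, 2, 5, 6 and 9. It was low in the same libraries as Txnrd1, cholate rats 8 and 11 and control rat 9, and the diets overlapped. The log2 fold change was 0.50 (approximate SE 0.47, adjusted p 0.532) over all libraries and 0.62 (adjusted p 0.0573) in the 6 libraries alone.

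Gpx2 is the glutathione peroxidase of the gut epithelium, and it had the highest level of the 10 genes per kilobase of coding sequence in both diets, with means of 1499 CPM in cholate rats and 1106 CPM in control rats. Its gene lies on chromosome 6, 99839960 to 99843245 on the - strand of rn6. The level was 661, 884, 668, 1014 and 1069.8 CPM in cholate rats 3, 4, 7, 8 and 11, against 508, 494, 539, 617 and 1012 CPM in control rats 1, 2, 5, 6 and 9. Every cholate rat was above control rats 1, 2, 5 and 6, and control rat 9 lay among the highest cholate rats. Over all 10 libraries the log2 fold change of 0.44 (approximate SE 0.23, adjusted p 0.229) did not pass. Its interval, from -0.06 to 0.94, leaves out a doubling. In the 6 libraries alone the log2 fold change was 0.48 (adjusted p 0.0268). With the surrogate variable it was 0.44 (adjusted p 0.0184), and neither was called.

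Osgin1, a growth inhibitor that responds to oxidative stress, lies on chromosome 19, 52056808 to 52085491 on the + strand of rn6. Its level was 14.1, 21.7, 27.4, 47.7 and 35.4 CPM in cholate rats 3, 4, 7, 8 and 11, against 38.0, 49.6, 28.6, 28.8 and 50.5 CPM in control rats 1, 2, 5, 6 and 9. The diets overlapped, with cholate rats 3, 4 and 7 below every control rat. The log2 fold change was -0.42 (approximate SE 0.31, adjusted p 0.415) over all libraries and -0.84 (adjusted p 0.0478) in the 6 libraries alone, and neither was called.

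With the 6 libraries alone, Akr1b8 and Nqo1 were called higher, against 2.45% of all genes. With the surrogate variable Akr1b8 and Hmox1 were called higher, against 1.95%. In both fits 0 members were called lower, against 5.48% of all genes in the 6 libraries and 5.26% with the surrogate variable. At an unadjusted p under 0.05 Osgin1 was lower in both. At that limit Akr1b8, Hmox1, Nqo1, Txnrd1, Srxn1, Slc7a11 and Gpx2 were higher in both. The share of all genes at that limit was not computed for these fits. Of the 10 genes, Akr1b8 was thus the only member called higher in all 3 fits.

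Ordered by mean level per kilobase of coding sequence, the control rats had Gpx2 first, at 1106 CPM, then Gclc at 136, Gclm at 100.5, Nqo1 at 75.3, Txnrd1 at 72.1, Akr1b8 at 53.0, Osgin1 at 27.2, Srxn1 at 12.8, Hmox1 at 11.6 and Slc7a11 at 0.186. In cholate rats the order was Gpx2 at 1499 CPM, Akr1b8 at 227, Nqo1 at 141, Gclc at 116, Txnrd1 at 110.0, Gclm at 98.8, Hmox1 at 59.5, Osgin1 at 20.4, Srxn1 at 18.1 and Slc7a11 at 0.668. Neighbours such as Nqo1 and Txnrd1 or Srxn1 and Hmox1 in control rats, and Gclc, Txnrd1 and Gclm in cholate rats, lay within each other's spread. The change in place of Akr1b8, to the 2nd place in cholate rats against the 6th in control rats, was the largest.

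Within a diet the members did not move as 1 block. Over the 10 libraries and 45 pairs of genes, the correlation of deviations from the diet mean had a median r of 0.02, with 2 pairs over 0.8 and 8 pairs under -0.5. The share of such pairs among all genes was not computed, so these counts describe the members without a background. The limits of the 2 counts differ in size, so the counts do not compare the directions. With the limit of the second count applied to both signs, more pairs went together than opposite ways. Of the negative pairs, only Srxn1 and Gpx2 were beyond 0.8 in size. Txnrd1 and Srxn1 went together (r = 0.91), as did Nqo1 and Akr1b8 (0.85), Gclc and Gclm (0.77) and Hmox1 and Osgin1 (0.74). Srxn1 and Gpx2 went opposite ways (-0.84), as did Txnrd1 and Osgin1 (-0.78). These points share their libraries and the axis described above, with which Srxn1 and Txnrd1 each had r = -0.93, Slc7a11 -0.75, Gclc -0.69, Gclm -0.35, Akr1b8 0.14, Hmox1 0.47, Nqo1 0.56, Osgin1 0.68 and Gpx2 0.81. The part of that axis in the results was not tested.

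**Figure D3:**
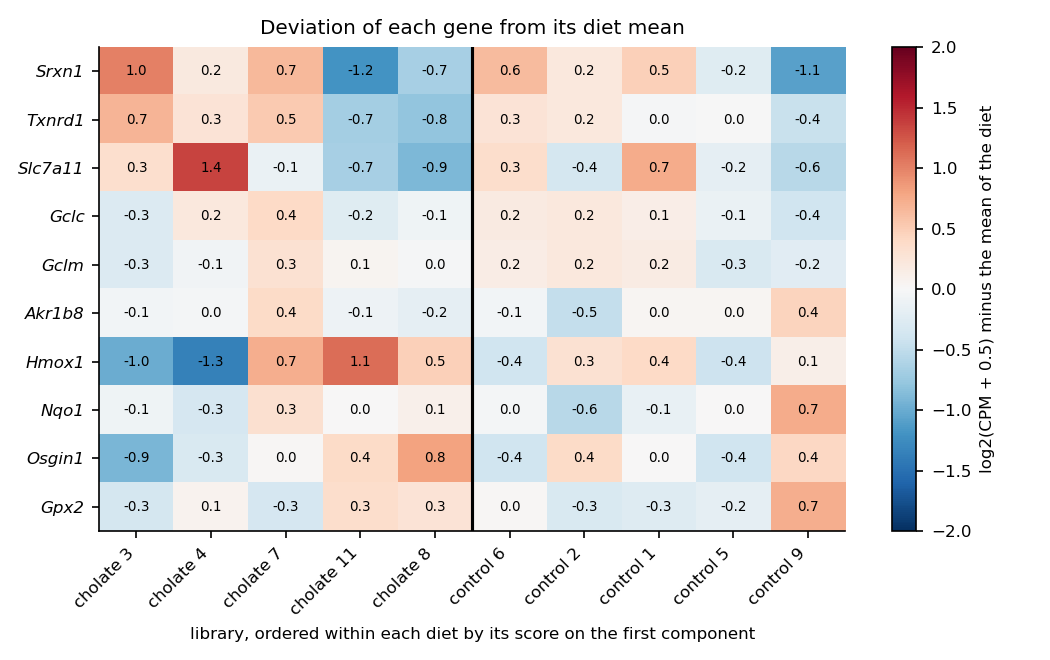
Deviation of each gene from the mean of its diet, in log2(CPM + 0.5), for cholate libraries on the left and control libraries on the right, each ordered by the library axis. Red is above and blue below the diet mean. Srxn1 and Txnrd1 are low and Gpx2 is high in cholate rats 8 and 11 and control rat 9, whereas Akr1b8 shows no such order.

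The genes that control the pathway did not pass the test. Of 12 tested genes of NRF2 and its regulators, 0 were called by edgeR, DESeq2 or limma-voom, with 2 higher and 2 lower at an unadjusted p under 0.05 and a median log2 fold change of -0.08. At that limit 14.5% of all tested genes were higher and 14.4% lower, which is the background of the list counts that follow. The log2 fold changes of the 12 genes ran from -0.50 to 1.03. In 1 of them every cholate rat was above every control rat (6.3% of all genes), and 0 were below in every cholate rat (6.8%). Rbx1, a subunit of the ubiquitin ligase that KEAP1 recruits, had the smallest adjusted p, with a log2 fold change of 0.55 (adjusted p 0.0396). Nfe2l2, which encodes NRF2, and Keap1 were picked out after their values were seen. Nfe2l2 was at 242.5 ± 46.1 CPM in cholate rats and 259.5 ± 25.8 CPM in control rats (SD, n = 5 each, log2 fold change -0.10, adjusted p 0.707). Keap1 was at 42.4 ± 4.60 CPM in cholate rats and 44.4 ± 3.59 CPM in control rats (log2 fold change -0.06, adjusted p 0.784). NRF2 is controlled mainly at the protein level, which these libraries do not measure.

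Among 18 tested genes of glutathione synthesis and use, 1 was called higher and 0 lower, with a median log2 fold change of 0.38, and 10 were higher and 0 lower at an unadjusted p under 0.05 (14.5% and 14.4% of all genes). The called gene, Gss, joins glycine to the product of Gclc and Gclm and was at 287.9 ± 55.9 CPM in cholate rats and 130.0 ± 27.0 CPM in control rats (log2 fold change 1.15, approximate SE 0.18, adjusted p 0.00291). Gss overlaps Myh7b on the other strand, though not in coding parts. Its call was lost without control rat 1, 2 or 6, with adjusted p up to 0.0110. Limma-voom and DESeq2 called 0 genes of this list lower. In the 6 libraries alone Glrx, a glutaredoxin, was called higher too.

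Of 16 genes of the thioredoxin and peroxiredoxin list 0 were called higher and 1 lower, with a median of 0.21, and 4 were higher and 4 lower at an unadjusted p under 0.05. Txnip, which binds thioredoxin and blocks it, was at 621 ± 124 CPM in cholate rats and 1485 ± 181 CPM in control rats (log2 fold change -1.26, approximate SE 0.16, adjusted p 0.00128). Of 8 genes of NADPH supply 0 were called, with 5 higher and 1 lower at an unadjusted p under 0.05 and a median of 0.71. DESeq2 called 2 of them higher and limma-voom 0. Pgd, an enzyme of the pentose phosphate pathway, had the smallest adjusted p, with a log2 fold change of 0.76 (adjusted p 0.00647), under the fold limit. In 5 of the 8, every cholate rat was above every control rat, against 6.3% of all genes.

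Among 19 genes of heme and iron handling, 0 were called higher and 1 lower, with a median of 0.19, and 3 were higher and 3 lower at an unadjusted p under 0.05. The called gene, Slc46a1, a proton-coupled folate transporter first described as a heme carrier, was at 3.15 ± 1.21 CPM in cholate rats and 25.3 ± 4.34 CPM in control rats (log2 fold change -3.03, approximate SE 0.27, adjusted p 0.000350). Of 17 tested genes of conjugation and carbonyl reduction 0 were called, with 2 higher and 1 lower at an unadjusted p under 0.05 and a median of 0.12. DESeq2 called 1 lower, Aldh3a1, and limma-voom 0, and by edgeR Aldh3a1, an aldehyde dehydrogenase, had a log2 fold change of -1.33 (adjusted p 0.0317).

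Akr1b8 was the only aldo-keto reductase called higher among those listed. The 10 other tested genes of the list had a median log2 fold change of 0.16, with 0 called higher, 1 called lower, and 2 higher and 1 lower at an unadjusted p under 0.05. DESeq2 and limma-voom also called 0 of them higher. The called gene, Akr1cl, named Akr1c15 in the later RefSeq table, was at 99.3 ± 60.1 CPM in cholate rats and 513 ± 99.8 CPM in control rats (log2 fold change -2.37, approximate SE 0.36, adjusted p 0.00269). Akr1b10 and Akr1b7, the close relatives of Akr1b8 on chromosome 4, had 0 counts in every library, which allows up to 3 counts in each. That limit covers counting error only. How reads shared by such relatives were assigned is not stated, so the counts of Akr1b8, Akr1b10 and Akr1b7 are uncertain in that respect. Akr1b1, aldose reductase itself, had a log2 fold change of -0.06 (adjusted p 0.923).

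**Figure D4:**
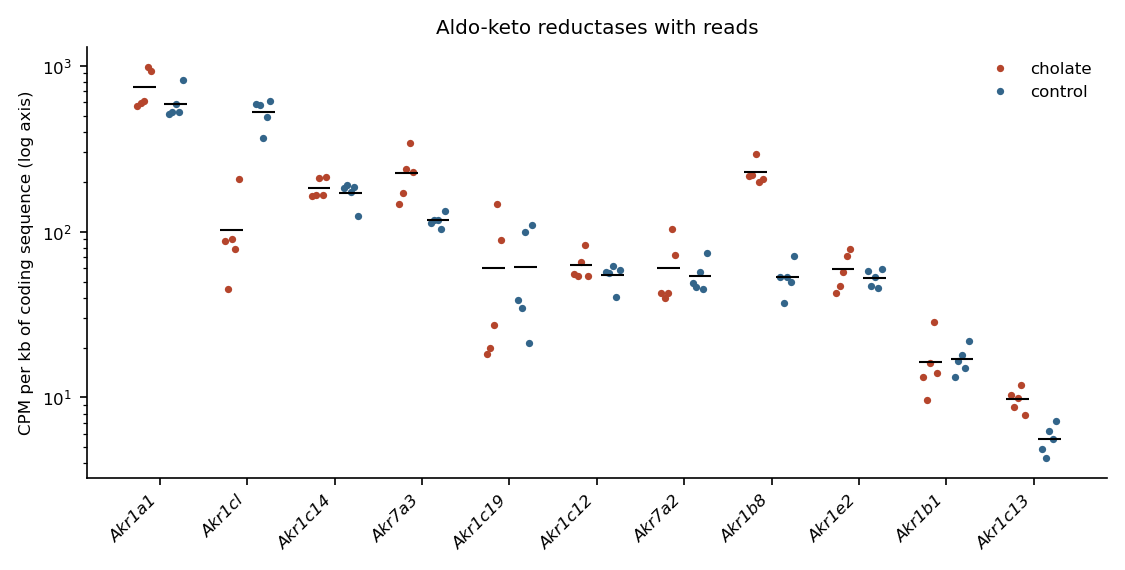
Level of each listed aldo-keto reductase with reads, in CPM per kilobase of coding sequence on a log axis, with cholate rats (red) left of control rats (blue) and a bar at each mean. Points are single rats. Akr1b8 lies higher in all cholate rats and Akr1cl lower in all cholate rats, with means of 227 and 102 in cholate rats and 53.0 and 527 in control rats.

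In the list of sources and sinks of superoxide and peroxide, 1 of 15 tested genes was called higher and 0 lower, with a median of 0.15 and 1 higher and 1 lower at an unadjusted p under 0.05. Sod3, the extracellular superoxide dismutase, had very low levels of 0.772 ± 0.287 CPM in cholate rats and 0.184 ± 0.0673 CPM in control rats (log2 fold change 2.00, approximate SE 0.41, adjusted p 0.00984). The Sod3 call was lost in 15 of 21 alternative settings, among them all 10 that left out 1 rat (adjusted p 0.0110 to 0.0298) and the 6 libraries alone (log2 fold change 1.87, adjusted p 0.0286). The ATF4 response, which shares targets such as Slc7a11 with NRF2, had 2 of 11 tested genes called higher and 0 lower, with a median of 0.61 and 6 higher and 0 lower at an unadjusted p under 0.05. They were Trib3, at 5.28 ± 1.82 CPM in cholate rats and 1.77 ± 0.181 CPM in control rats (adjusted p 0.00333), and Psat1, at 5.30 ± 1.81 CPM in cholate rats and 1.06 ± 0.465 CPM in control rats (adjusted p 0.00378). The Trib3 call was lost without control rat 1, 2 or 6 (adjusted p up to 0.0124), and the Psat1 call without cholate rat 4 or 7 or control rat 2 or 6 (adjusted p up to 0.0150).

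**Figure D5:**
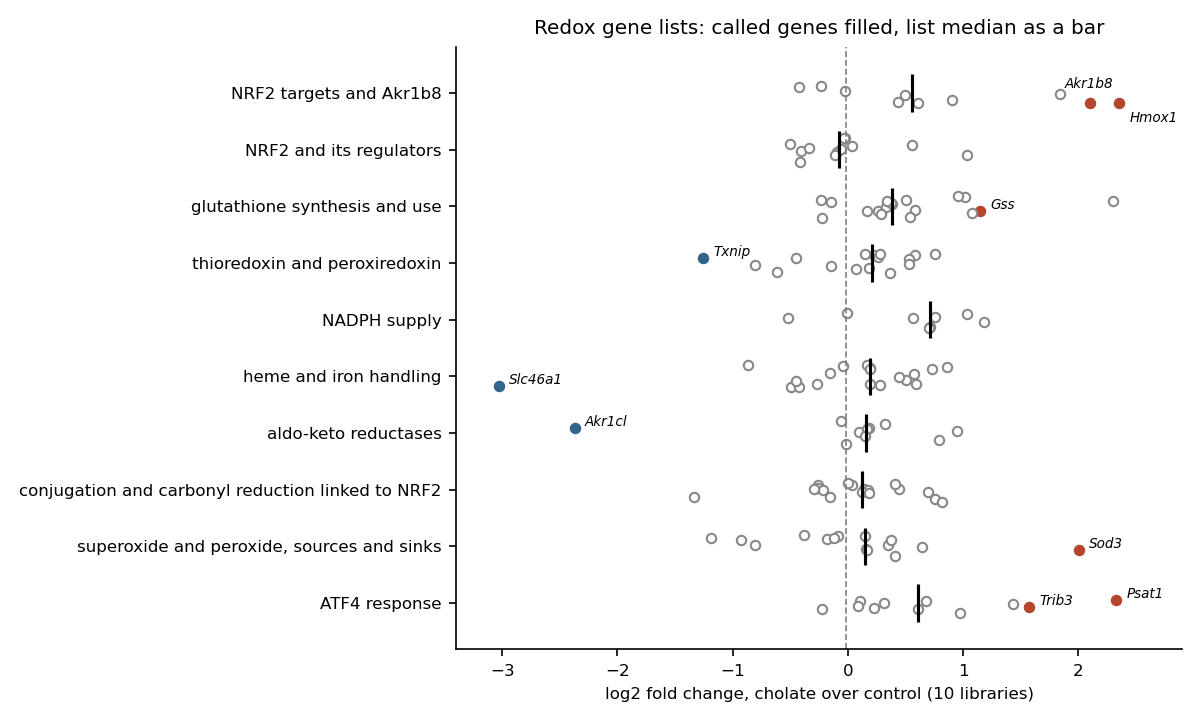
Log2 fold change of each tested gene, cholate over control, for the 10 genes described here and 9 lists of related genes. Filled points are called (red higher, blue lower), black bars are list medians and the dashed line is the median of all genes, -0.01. The medians lie between -0.08 for NRF2 and its regulators and 0.71 for NADPH supply.

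Markers of some cell types moved with the diet beside these genes, and those of others overlapped. The 8 markers of differentiated colonocytes summed to 8538 to 14096 CPM in cholate rats and 4276 to 5980 CPM in control rats, with Car1, Car4 and Krt20 called higher. Another of the 8, Guca2b, the precursor of uroguanylin, was at 7.86 ± 2.84 CPM in cholate rats and 19.1 ± 7.33 CPM in control rats (adjusted p 0.0241), and it was called lower in the 6 libraries, with the surrogate variable and with DESeq2. The 8 proliferation markers summed to 807 to 1256 CPM in cholate rats and 660 to 804 CPM in control rats. Of these, Ccnb1 and Tk1 were called higher. The 6 smooth muscle markers summed to 8.17 to 13.5 CPM in cholate rats and 42.4 to 61.9 CPM in control rats, and Des was called lower. The 5 endothelial markers summed to 0.759 to 3.51 CPM in cholate rats and 3.84 to 7.89 CPM in control rats, with Vwf called lower, and the diets did not overlap. The 6 fibroblast markers, of which Col1a2 was at 0, overlapped, at 0.380 to 3.24 CPM in cholate rats and 1.75 to 3.79 CPM in control rats, and Col1a1, which alone of them passed the filter, was called lower in the 6 libraries, with the surrogate variable and with DESeq2. The 8 general epithelial markers, at 15245 to 22357 CPM in cholate rats and 12359 to 17169 CPM in control rats, overlapped and had reads in every case. The 7 goblet cell markers overlapped, at 7306 to 26558 CPM in cholate rats and 7717 to 24434 CPM in control rats. They were highest in cholate rats 8 and 11 and control rat 9, the libraries with the highest axis scores. Sums of granulocyte, T and NK cell, B and plasma cell and red blood cell markers overlapped too. At an unadjusted p under 0.05, 2 of 4 tested red blood cell markers were lower (14.4% of all genes) and 1 of 3 T and NK cell markers was higher (14.5%). The part of these shifts in the results was not tested.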

How the data were processed

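RNA-seq of distal colon epithelium from 5 cholate-fed and 5 control rats was analysed. Per the submitters' processing notes, reads were handled with bcl2fastq 1.8.4, BWA 0.7.12-r1039, genome build rn6 and edgeR 3.16.2. The sources used here do not say how reads were counted or whether strand was used, so counts of near-identical or overlapping genes are uncertain. The authors deposited raw counts per gene, which were used for every comparison, and a normalized signal (CPM after TMM scaling), read only for the scaling factors. The deposited gene lengths equal the summed coding segments for all 23422 genes, so they are coding lengths. Of the genes, 6442 had no reads. The limit of 3 counts behind a count of 0 covers counting error only.

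After filterByExpr by diet and TMM scaling, the robust quasi-likelihood F test of edgeR 4.0.16 (R 4.3.3) was run with diet as the only term and Benjamini-Hochberg adjustment over 12385 genes. The limits for a call were 0.01 on the adjusted p and 2 on the fold change. The common biological coefficient of variation was 34.3%. Standard errors are approximate (absolute log2 fold change divided by root F), and 95% intervals use the t distribution with the degrees of freedom of each gene's test, so they include variation between rats. Alternatives were other scalings and filters, limma 3.58.1 (voom, with and without quality weights), DESeq2 1.42.0, a test against a fold of 2, a looser p and leaving out each rat, and, added after seeing the data, 6 libraries and 1 surrogate variable (sva 3.50.0). Correlations used log2(CPM + 0.5) deviations from the diet mean.

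The members and lists were chosen with earlier results of these data known. All 10 members are named, and of each other list the called genes (up to 4) or, with none called, the gene with the smallest adjusted p. For each member the gene of at least 5 CPM with the most similar deviations is named too. Of 235 list entries all 235 were found in the table, 233 by symbol.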

Additional observations from a re-analysis of the deposited data

Results flagged for a closer look

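In 3 of 40 groups of 5 rats examined, 1 rat stood apart from the others by Dixon's test, where chance alone gives about 1 group in 20. Akr1b8 in cholate rat 7 was at 279.9 CPM, with the next highest cholate rat at 208 CPM. Akr1cl in cholate rat 11 was at 202.0 CPM, with the next highest cholate rat at 88.5 CPM. Gpx2 in control rat 9 was at 1012 CPM, with the next highest control rat at 617 CPM. Without control rat 9 the log2 fold change of Gpx2 was 0.65 (adjusted p 0.02), still not called.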

How the results depend on the processing

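No paired analysis was possible because the diets have different rat numbers. The count of members called higher was 2, and it was 1 with a mean of at least 5 CPM, with limma-voom and with the test against a fold of 2, and 1 to 2 when 1 rat was left out. An equal count did not always mean the same genes. With quality weights, without control rat 9 and in the 6 libraries the 2 were Akr1b8 and Nqo1, and Hmox1 was not called. The count of members called lower was 0 in every setting. Over all genes, 136 were called higher and 262 lower. With a mean of at least 5 CPM these counts were 81 and 160, with quality weights 303 and 847, with the test against a fold of 2 they were 16 and 34, and at an adjusted p under 0.05 they were 264 and 531. With DESeq2 they were 266 and 522, with the 6 libraries 310 and 693, and with the surrogate variable 241 and 652, the last 2 settings chosen after seeing the data. Leaving out 1 rat gave 59 to 152 higher and 109 to 298 lower. The counts were 79 and 128 without cholate rat 4, 66 and 126 without control rat 1, 59 and 109 without control rat 2 and 68 and 132 without control rat 6, while 128 were lower without cholate rat 7 and 90 higher without control rat 5. The causes were not tested. No value reversed a call. Scaling by library size alone moved the median of all genes by -0.06 on the log2 scale. Of the called genes named, Akr1b8 and Slc46a1 stayed called in the test against a fold of 2, and Hmox1, Gss, Txnip, Akr1cl, Sod3, Trib3 and Psat1 did not.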

Other observations

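For each member, the gene whose deviations from the diet mean were most like its own was sought among 9757 genes over the 10 libraries, which share depth and the library axis. It was Fam69a for Hmox1 (r = 0.96), Bbs5 for Nqo1 (0.90), Aspm for Gclc (0.96), Zkscan3 for Gclm (0.96), Itgb1 for Txnrd1 (0.99), Tpr for Srxn1 (0.99), Prss23 for Slc7a11 (0.96), Capn9 for Gpx2 (0.97), Cables1 for Osgin1 (0.97) and MGC95208 for Akr1b8 (0.83). Fam69a had a log2 fold change of -0.87 in cholate over control rats, against 2.35 for Hmox1, and Bbs5 one of -0.85, against 0.91 for Nqo1. MGC95208 had a log2 fold change of 0.18, against 2.10 for Akr1b8.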
